A study of Mus musculus with 8 samples.

Results

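The S100 genes encode small calcium-binding proteins, and 10 of them were followed here: S100a1, S100a4, S100a6, S100a8, S100a9, S100a10, S100a11, S100a13, S100a14 and S100a16. Every gene probe whose transcript accession maps to 1 of these 10 genes was taken, which gave 12 probes, among 45622 genes and unnamed transcripts on the array. The RNA came from TEC71, a mouse thymic epithelial line of medullary origin, and was read on 8 Agilent arrays with 1 dye, Cy3. In clone 1 (3 arrays) and clone 3 (2 arrays) the T1211A mutation had been knocked into Gtf2i, the gene of the transcription factor TFII-I. The control (3 arrays) was the same line after transfection of Cas9n, a Cas9 that nicks DNA, with 1 guide RNA. Each knock-in line is a single edited clone, and the labels do not say whether arrays of a group were separate cultures, so a p-value here covers only the scatter of these arrays, which may be technical.

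An S100 protein carries a pair of EF-hand loops. Calcium opens the protein and exposes a surface that grips target proteins, such as annexins, myosin or p53. Most members work as dimers inside the cell, and several also leave it and act on the receptors RAGE and Toll-like receptor 4. Most of the genes lie side by side on mouse chromosome 3, next to the genes of the cornified envelope, and epithelia that line surfaces are among their main sites of expression.

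Of the 10 genes, 2 were higher and 2 lower in both knock-in clones, 4 passed in neither clone, and 2 were not above background anywhere. S100a13 and S100a1, neighbours at one end of the gene cluster, were higher. S100a4 and S100a14 were lower. S100a16, S100a6, S100a10 and S100a11 gave differences that missed the threshold, and S100a8 and S100a9, the subunits of calprotectin, were not detected. A level below is a log2 signal minus the log2 of its array's 75th percentile signal, and a difference is the mean level of the first group minus that of the second. A gene passed where limma gave an adjusted p under 0.05 (Benjamini-Hochberg over everything tested).

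Some facts of the arrays bear on all of these values. On an array, 55.3% to 59.3% of probes passed the scanner software's test against background, no gene spot was saturated, and the number of arrays limits the precision. All 8 arrays share 1 slide and 1 scan time. Row 1 of the slide holds the controls and the first clone 1 array, and row 2 the other 4 arrays. Row 1 holds 1 array of clone 1, so differences within row 1 are given as values with no p-value. On that clone 1 array the brightest spike-in signal was 2784 where the other arrays had 17227 to 29324. Clone 3 and the control share no row, so row and group cannot be told apart there except through clone 1. With a row block, the clone 1 difference from the control is the same value as the difference within row 1. It therefore rests on the 1 clone 1 array of that row, and the clone 3 difference depends on that array too. Gtf2i itself averaged 3.96 in clone 1 and 3.82 in clone 3, against 4.41 in the control (SD 0.069, 0.034 and 0.049, on 3, 2 and 3 arrays; limma adjusted p = 0.00754 and 0.00421, or 0.0789 and 0.125 with a row block, which ends both calls), and a probe level does not read the mutation. Of 15 medullary thymic epithelial markers 12 were well above background on all 8 arrays, among them Krt14, Epcam and Cldn3. H2-Aa and Fezf2 were above it on no array and Aire on only some. Of 5 cortical markers Prss16 and Ly75 were above it on all 8 arrays and the other 3 on none. Prss16 was higher in both clones (log2 differences 0.71 and 0.57), and a row block ended both calls.

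The start regions of S100a13 and S100a1 are shown first because these neighbours both rose. The genes point away from each other, and the annotated starts used here lie 105 bases apart. Their windows of 250 bases before to 50 bases after the start therefore share 204 bases. The annotated gene spans of this pair overlap (a gap of -0.1 kb). The sequences are from RefSeq on GRCm38.p6, each written 5′ to 3′ on the strand of its gene, with the shared bases in capitals. The S100a13 window is chr3:90514185-90514484 on the plus strand and the S100a1 window is chr3:90514281-90514580 on the minus strand. The last sequence, chr3:90603520-90603819 on the plus strand, belongs to S100a4, the member with the largest fall, and its capitals mark a TATAAA box.
S100a13: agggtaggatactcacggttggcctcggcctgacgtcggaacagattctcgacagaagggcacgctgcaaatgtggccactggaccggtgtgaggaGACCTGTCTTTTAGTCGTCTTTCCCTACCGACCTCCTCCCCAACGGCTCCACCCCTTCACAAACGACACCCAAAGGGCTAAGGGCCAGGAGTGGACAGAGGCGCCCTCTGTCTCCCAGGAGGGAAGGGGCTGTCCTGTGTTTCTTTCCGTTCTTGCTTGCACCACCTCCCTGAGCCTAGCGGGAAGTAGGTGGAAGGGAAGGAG
S100a1: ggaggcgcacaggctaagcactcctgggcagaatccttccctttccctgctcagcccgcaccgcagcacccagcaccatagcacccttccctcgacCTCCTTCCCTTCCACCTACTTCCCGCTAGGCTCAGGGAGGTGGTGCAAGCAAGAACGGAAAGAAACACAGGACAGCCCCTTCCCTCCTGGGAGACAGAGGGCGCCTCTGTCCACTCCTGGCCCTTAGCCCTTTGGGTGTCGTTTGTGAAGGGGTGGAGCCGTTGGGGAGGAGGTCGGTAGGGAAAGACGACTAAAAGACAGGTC
S100a4: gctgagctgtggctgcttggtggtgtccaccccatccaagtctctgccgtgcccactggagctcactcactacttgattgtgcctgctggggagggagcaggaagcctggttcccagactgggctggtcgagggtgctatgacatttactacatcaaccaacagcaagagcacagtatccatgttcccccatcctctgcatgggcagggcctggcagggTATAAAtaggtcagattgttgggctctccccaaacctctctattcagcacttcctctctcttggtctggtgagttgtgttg

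Windows were found for 8 of the 10 members (not for S100a10 and S100a14), 9 windows in all since S100a16 has a pair of them. They were searched on both strands for TATAAA, for TGANTCA (AP-1), for TTGCNNCAA (C/EBP), for CANNTG (E-box), for GGATTA (bound by relatives of TFII-I) and for the NF-kB motif. No window held GGATTA, TTGCNNCAA or the NF-kB motif, which 7.06%, 2.08% and 4.51% of all 32851 such windows hold. TATAAA lay 31 bases before the start of S100a4, 30 before that of S100a8 and at the annotated start of S100a9, and 13.6% of all windows hold it. TGANTCA was matched in S100a11 and in 1 window of S100a16, against 7.81% of all windows. The S100a13 window held CANNTG and the S100a1 window none of the 6 motifs, whereas 72.3% of all windows hold CANNTG. A match describes letters in a window and shows neither a bound site nor a cause.

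S100a4, also called metastasin, binds the heavy chain of non-muscle myosin and loosens its filaments. Its levels were 1.69, 1.52 and 1.78 on the clone 1 arrays and 1.64 and 1.8 on the clone 3 arrays, against 2.71, 2.7 and 2.6 on the control arrays. All 5 knock-in arrays lay below every control array, with a gap wider than the spread inside any group. The processed signal behind them was 1030, 802 and 1260 in clone 1 and 996 and 988 in clone 3, against 1760, 2450 and 1730 in the control. S100a4 was 2.01-fold lower in clone 1 (log2 difference -1 with SE 0.11, limma adjusted p = 0.000272). In clone 3 it was 1.93-fold lower (log2 difference -0.95 with SE 0.13, limma adjusted p = 0.000808). The 1 clone 1 array in row 1 differed from the controls by -0.98. A fit that blocks on the row, which has that same value for clone 1, kept both calls (adjusted p = 0.0081 for clone 1 and 0.0495 for clone 3).

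S100a4 also serves as a marker of fibroblasts, so stromal markers were read beside it. Of 8 such markers Pdgfra and Col1a2 were well above background on all 8 arrays, and Pdgfrb, Dcn, Lum and Thy1 were above it on none. Pdgfra, a growth factor receptor of mesenchyme, was lower in both clones (log2 differences -1.30 and -1.83), while Col1a2 did not pass in either. The summed linear level of the list was 0.466 to 0.625 in clone 1 and 0.481 to 0.557 in clone 3, against 0.962 to 1.21 in the control, and Pdgfra made up 37.9% to 76.9% of it on an array. Their part in the S100a4 result was not tested, and in such bulk RNA fewer cells of a type and less RNA per cell cannot be told apart.

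S100a14 is found mainly in epithelia and has been tied to cell motility and p53. Its levels were 4.58, 4.42 and 4.47 in clone 1 and 4.37 and 4.56 in clone 3, against 5.22, 5.38 and 5.24 in the control. Again no knock-in array reached the lowest control. S100a14 was 1.73-fold lower in clone 1 (log2 difference -0.79 with SE 0.11, adjusted p = 0.000842) and 1.76-fold lower in clone 3 (log2 difference -0.82 with SE 0.12, adjusted p = 0.00151). The row 1 array of clone 1 differed from the controls by -0.70 log2. A row block ended the clone 3 call (-0.68 log2, adjusted p = 0.0949). Epithelial markers moved in both directions beside it: the adhesion gene Epcam (-1.1 and -1.01 log2 in clones 1 and 3) and the basal keratin gene Krt5 (-1.32 and -1.13 log2) fell, whereas the keratin gene Krt17 rose (2.18 and 2.23 log2). Their part in the S100a14 result was not tested.

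S100a13 helps to carry FGF1 and interleukin 1 alpha out of the cell by a route that bypasses the Golgi. Its levels were 1.22, 1.12 and 1.11 in clone 1 and 1.01 and 0.75 in clone 3, against 0.22, 0.46 and 0.00 in the control. All knock-in arrays lay above the highest control, and the second clone 3 array lay nearest to it. S100a13 was 1.9-fold higher in clone 1 (log2 difference 0.92 with SE 0.14, adjusted p = 0.00142) and 1.57-fold higher in clone 3 (log2 difference 0.65 with SE 0.16, adjusted p = 0.0145). Within row 1 the difference was 0.99 log2. A row block has that same value for clone 1, which passed with it (limma adjusted p = 0.0173). The clone 3 call was lost under that block (adjusted p = 0.147), without a filter on dim probes (adjusted p = 0.056) and without the first clone 3 array (0.52 log2, adjusted p = 0.092).

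S100a1 is best known from heart and skeletal muscle, where it acts on the calcium pump and release channel. Its levels were 0.23, 0.30 and 0.19 in clone 1 and -0.20 and 0.34 in clone 3, against -0.39, -0.62 and -0.51 in the control. The clone 1 arrays lay close together above the controls, and the clone 3 arrays lay further apart than any other pair in a group of this gene. S100a1 was 1.68-fold higher in clone 1 (log2 difference 0.75 with SE 0.15, adjusted p = 0.0058) and 1.49-fold higher in clone 3 (log2 difference 0.57 with SE 0.17, adjusted p = 0.0322). The row 1 array of clone 1 gave 0.74 log2, but neither clone passed with a row block (adjusted p = 0.0642 and 0.315 for clones 1 and 3). The clone 3 call also ended without the second clone 3 array (0.30 log2, adjusted p = 0.212) and without the control array 2 or 3 (adjusted p = 0.0877 and 0.0737). It ended likewise without a filter on dim probes (adjusted p = 0.103) and in a fit of clone 3 and control alone (adjusted p = 0.068).

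**Figure D1:**
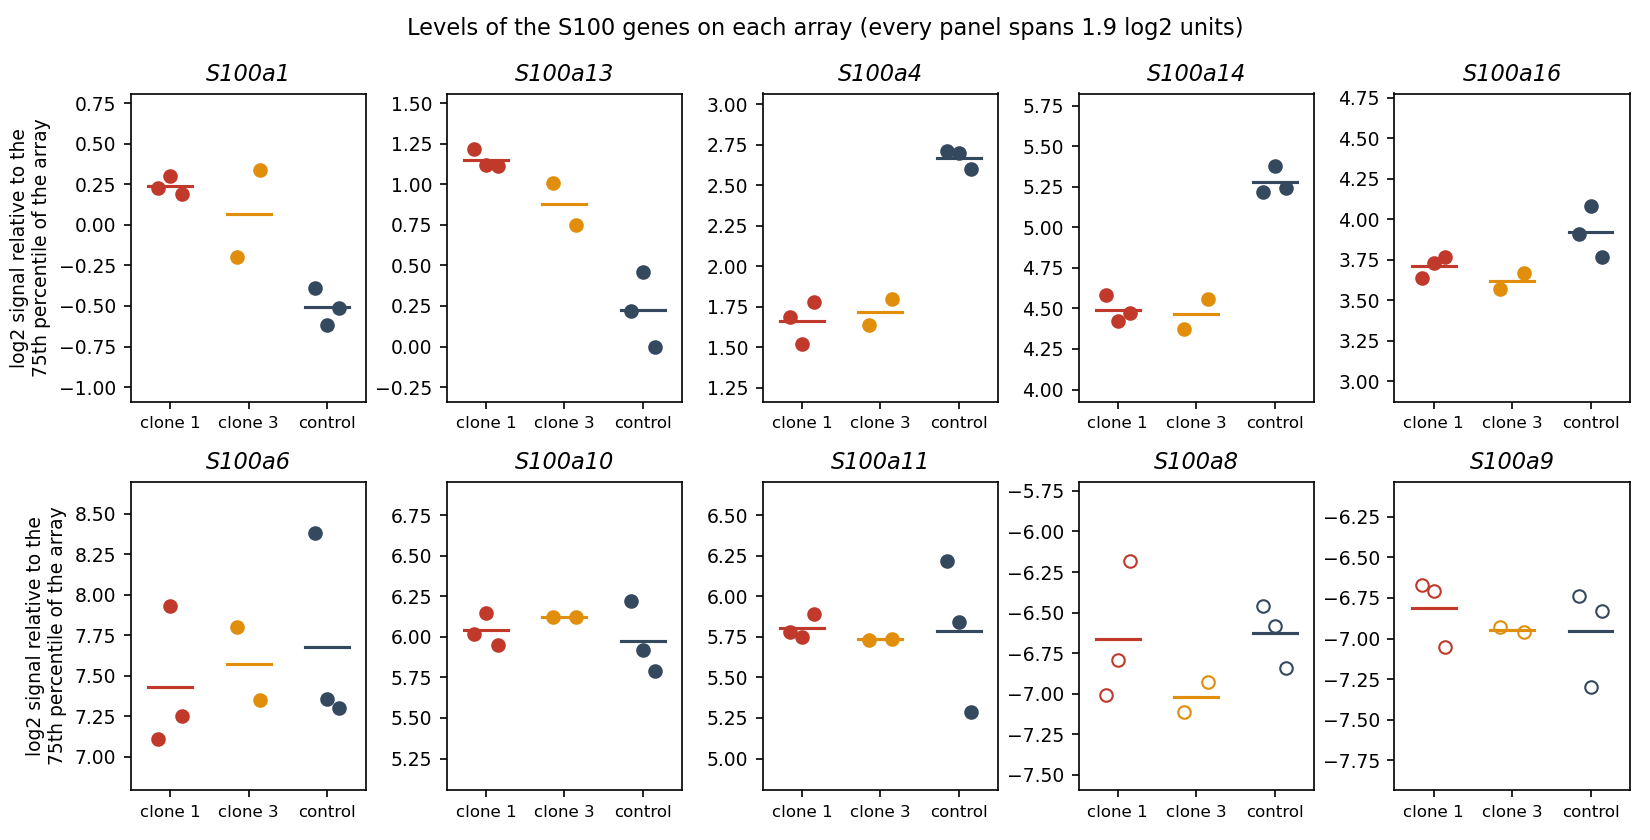
Each panel shows 1 S100 gene, with its level (log2 signal minus the array's 75th percentile) on the vertical axis, a point for each array, and a line at the mean of clone 1 (3 arrays), clone 3 (2 arrays) and the control (3 arrays). Open points were not well above background. S100a1 and S100a13 lie higher and S100a4 and S100a14 lower on all knock-in arrays than on any control array, and S100a8 and S100a9 have open points only.

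S100a16, a widely expressed member that favours fat cell formation in mice, gave differences below 0 that did not pass. The levels of its brighter probe were 3.64, 3.73 and 3.77 in clone 1 and 3.57 and 3.67 in clone 3, against 3.91, 4.08 and 3.77 in the control. The clone 1 arrays overlapped the controls and the clone 3 arrays lay just under them. The difference was -0.21 log2 in clone 1 (95% interval -0.47 to 0.06, adjusted p = 0.218) and -0.30 log2 in clone 3 (95% interval -0.59 to -0.01, adjusted p = 0.113). A second S100a16 probe gave differences of -0.09 and -0.21 log2 in clones 1 and 3 and passed in neither (adjusted p = 0.62 and 0.273 over all probes).

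S100a6, calcyclin, binds annexin A11 and the calcyclin-binding protein and is abundant in dividing cells. Its levels were 7.11, 7.93 and 7.25 in clone 1 and 7.80 and 7.35 in clone 3, against 8.38, 7.36 and 7.30 in the control. The groups overlapped, and within each group 1 array stood above the rest. No other tested member spread as widely within clone 1 (SD 0.44) or within the control (SD 0.61). The difference was -0.25 log2 in clone 1 (95% interval -0.99 to 0.50, adjusted p = 0.624) and -0.10 log2 in clone 3 (95% interval -0.93 to 0.73, adjusted p = 0.864). Within row 1 the clone 1 array gave -0.57 log2. Intervals this wide do not settle whether S100a6 differed.

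S100a10, or p11, has lost the ability to bind calcium and stays bound to annexin A2, with which it links the plasma membrane to actin and captures plasminogen. Its levels were 6.02, 6.15 and 5.95 in clone 1 and 6.12 and 6.12 in clone 3, against 6.22, 5.92 and 5.79 in the control, so all groups overlapped. The difference was 0.07 log2 in clone 1 (95% interval -0.24 to 0.37, adjusted p = 0.757) and 0.14 log2 in clone 3 (95% interval -0.19 to 0.48, adjusted p = 0.515). A second, dimmer S100a10 probe gave 0.12 and 0.04 log2 in clones 1 and 3. Anxa2, its partner, did not pass either, at -0.37 log2 in clone 1 (95% interval -0.77 to 0.03) and 0.11 log2 in clone 3 (95% interval -0.34 to 0.56).

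S100a11 binds annexin A1 and takes part in growth arrest of keratinocytes. Its levels were 5.78, 5.75 and 5.89 in clone 1 and 5.73 and 5.74 in clone 3, against 6.22, 5.84 and 5.29 in the control. All knock-in values fell inside the range of the controls, which was wider than that of either clone. The difference was 0.02 log2 in clone 1 (95% interval -0.46 to 0.50, adjusted p = 0.955) and -0.05 log2 in clone 3 (95% interval -0.59 to 0.49, adjusted p = 0.901). The first control array was the highest of the controls for S100a6, S100a10 and S100a11 alike.

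S100a8 and S100a9 pair to form calprotectin, which neutrophils hold in large amounts and release as an alarm signal that acts on Toll-like receptor 4. Neither was well above background on any of the 8 arrays, so no fold is given and neither was tested. The processed signal of S100a8 was 2.47, 2.52 and 5.03 in clone 1 and 2.32 and 2.32 in clone 3, against 3.05, 3.93 and 2.51 in the control. For S100a9 it was 3.13, 2.68 and 2.77 in clone 1 and 2.63 and 2.28 in clone 3, against 2.52, 2.38 and 2.51 in the control. Each gene is read by 1 probe, so a transcript that the probe misses would not be seen. Of 15 myeloid markers on the array 7 were well above background on all arrays. These were Csf3r, Itgam, Csf1r, Fcer1g and the neutrophil genes Elane, Mpo and Camp. Other neutrophil and macrophage genes, Ngp, Ltf, Retnlg, Cxcr2, Lyz2, Adgre1 and Tyrobp, were above it on none. The summed linear level of the 15 markers was 54.1 to 67.4 in clone 1 and 56.9 to 57.1 in clone 3, against 62.5 to 81.2 in the control. Csf3r alone made up 79.7% to 88.7% of that sum, and it did not pass in either clone (-0.25 and -0.43 log2, adjusted p = 0.189 and 0.0545). Elane was the 1 marker of the list that passed, higher in clone 1 only. A row block ended that call (limma adjusted p = 0.182).

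**Figure D2:**
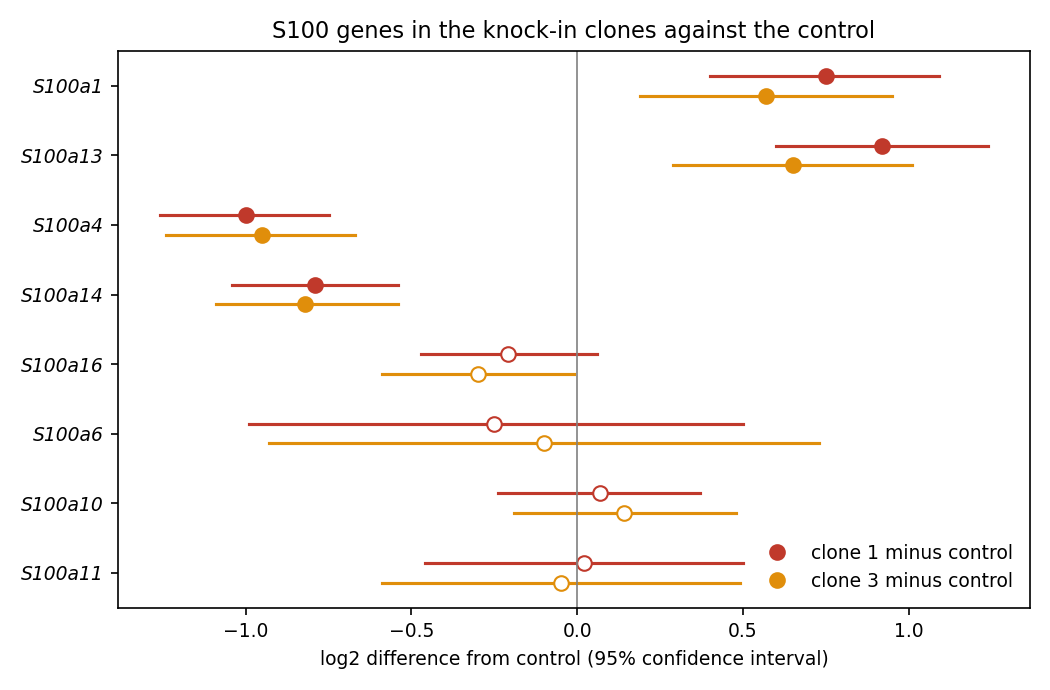
The log2 difference of each tested S100 gene from the control is drawn on the horizontal axis, for clone 1 and for clone 3, with its 95% confidence interval, and filled points passed at an adjusted p under 0.05. The intervals of S100a1, S100a13, S100a4 and S100a14 lie clear of 0 in both clones, and those of S100a6 are the widest. The S100a16 interval in clone 3 ends just below 0, at -0.01, though the gene did not pass.

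The family was then counted against the array as a whole. The 8 members that could be tested were well above background on all 8 arrays, so none passed the filter through 1 group alone. Of these, 2 were higher and 2 lower in clone 1, where 31.1% of 25352 tested genes and unnamed transcripts passed, 14.7% higher and 16.5% lower. The same 4 passed in clone 3, where 30.2% passed, 13.3% higher and 17% lower. In the same direction in both clones, 4 members passed, against 23.5% of everything tested (11.3% higher, 12.2% lower), and with 8 genes these shares do not set the family apart. Groups failed to overlap for 4 of 8 members in clone 1 and for 5 of 8 in clone 3, close to the 46.5% and 55.7% of everything tested. The median difference of the 8 members was -0.09 and -0.08 log2 in clones 1 and 3, beside -0.05 and -0.04 log2 over everything tested. Both comparisons use the same 3 control arrays, so their likeness is not independent support.

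Between the clones 0 of 8 members passed in limma, and 0 had an unadjusted p under 0.05, where 0.0749% of everything tested passed, 0.0434% higher and 0.0316% lower. Groups of the clones failed to overlap for 2 members, S100a13 and S100a11, against 28.5% of everything tested. The largest difference was that of S100a13, whose mean level was 0.88 in clone 3 and 1.15 in clone 1, a difference of -0.27 log2 (95% interval -0.63 to 0.08, adjusted p = 0.556). Within row 2 it was -0.24 log2. For S100a4 the clones differed by 0.05 log2 (95% interval -0.23 to 0.34) and for S100a14 by -0.03 log2 (95% interval -0.30 to 0.25). For S100a6 the interval of the difference, -0.69 to 0.97 log2, was the widest of the 8.

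Position along chromosome 3 was not used to choose the genes. In map order S100a1 and S100a13, both higher, come first. They are followed by S100a14 (lower), S100a16 (not passed) and then by S100a3, S100a2 and S100a4, all lower. The annotated spans of S100a3 and S100a2 overlap (a gap of -12.5 kb). S100a5, S100a6 and S100a7a come next, ahead of S100a8 and S100a9. S100a11 and S100a10, which did not pass, lie at the far end, past the cornified envelope genes. S100a3, a protein of the hair cuticle and no member of the set of 10, was lower in clone 1 (log2 difference -2.07 with SE 0.12, adjusted p = 5.76e-06) and in clone 3 (log2 difference -2.04 with SE 0.13, adjusted p = 1.59e-05). Its levels were -0.08, -0.04 and 0.10 in clone 1 and -0.09 and 0.15 in clone 3, against 1.98, 2.21 and 2.02 in the control, a wider gap than for any of the 10. S100a2, of basal keratinocytes, was lower too (-1.17 and -0.93 log2 in clones 1 and 3), and a row block ended its clone 3 call (adjusted p = 0.1). Of the remaining S100 genes S100a7a missed the threshold in both clones, S100a5 and S100z were above background on 1 and 3 of the 8 arrays, and S100a7l2, S100b and S100g on none. Of the fused-type S100 genes Crnn and Tchh could be tested and missed the threshold in both clones.

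**Figure D3:**
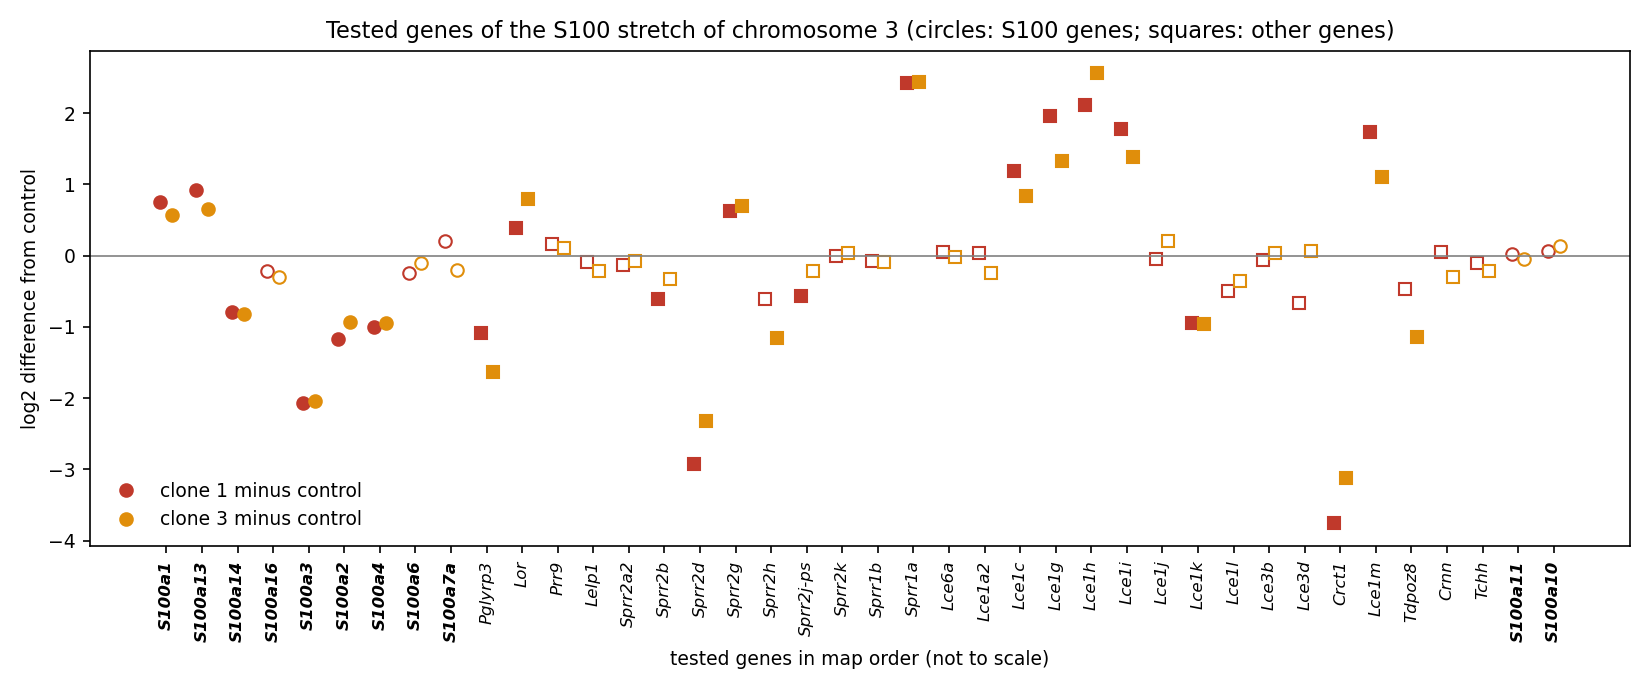
The tested genes between S100a1 and S100a10 on chromosome 3 stand in map order along the horizontal axis, not to scale, with the log2 difference of clone 1 and of clone 3 from the control on the vertical axis. Circles are S100 genes, squares are other genes, and filled symbols passed at an adjusted p under 0.05. S100a3, S100a2 and S100a4 lie next to each other below 0, with S100a1 and S100a13 above 0 at the left edge.

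The other genes of this stretch moved in both directions too. Of 29 tested, 8 were higher and 4 lower in both clones, beside 11.3% higher and 12.2% lower of everything tested. Crct1 and Sprr2d entered the test only through the control and Lce1h only through clone 3, and 9 genes pass when every array must be above background. Those that rose were Sprr1a, Sprr2g and Lor, which encode cornified envelope proteins, with Lce1c, Lce1g, Lce1h, Lce1i and Lce1m of the late cornified envelope genes. Those that fell were Crct1, Sprr2d, Lce1k and Pglyrp3, a peptidoglycan-binding protein. Sprr2b and Sprr2j-ps were lower in clone 1 only by the test, and Sprr2h and Tdpoz8 in clone 3 only by the test, and 0 of these 4 passed between the clones. Sprr1a rose by 2.43 and 2.44 log2 in clones 1 and 3, or by 1.32 and 1.41 log2 with normexp background correction. Lce1h was above background on no control array, on 1 of 3 clone 1 arrays and on both clone 3 arrays, at least 1.73-fold higher in clone 3. Crct1 and Sprr2d were above background on all control arrays and on no knock-in array. Crct1 was at least 3.04-fold lower in clone 1 and at least 3.01-fold lower in clone 3, and Sprr2d at least 1.55-fold and at least 1.54-fold lower. Probes of the Sprr2 and Lce1 families may read near-identical copies, so these members are uncertain. A row block ended the calls of Sprr2g (adjusted p = 0.222 and 0.37) and Lor (adjusted p = 0.232 and 0.102) in both clones. It ended those of Lce1c (adjusted p = 0.0975), Lce1m (adjusted p = 0.0996) and Lce1k (adjusted p = 0.102) in clone 3. With normexp background correction 6 of the 12 passed in both clones.

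Genes that work with S100 proteins were read from lists of known roles. Among 20 tested intracellular partners, 6 were higher in both clones, 2 were lower in both, and 12 were neither, where 11.3% of everything tested was higher and 12.2% lower. Among annexins, which S100 proteins link to membranes, Anxa5 rose by 1.26 and 1.38 log2 in clones 1 and 3, Anxa6 by 1.01 and 1.07 log2 and the S100a6 partner Anxa11 by 1.19 and 0.93 log2. The intermediate filament gene Vim (-1.16 and -1.30 log2) and Trp53, which encodes p53 (-0.64 and -0.74 log2), fell. A row block ended both Trp53 calls (adjusted p = 0.0682 and 0.15), and the Anxa11 call in clone 3 ended with normexp background correction (0.37 log2, adjusted p = 0.068). Myh9, the myosin that S100a4 binds, was chosen after its values were seen. It rose by 0.41 log2 in clone 1 (adjusted p = 0.0299) and 0.44 log2 in clone 3 (adjusted p = 0.0362), and neither call held with a row block (adjusted p = 0.362 and 0.663) or without any 1 of the 3 control arrays (adjusted p = 0.0533 to 0.0957 for clone 1 and 0.058 to 0.0977 for clone 3).

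Among 14 tested receptors and signalling partners, 3 were higher in both clones and 1 was lower in both, together near the 23.5% of everything tested. Tlr4, a receptor of calprotectin, rose by 1.06 and 0.72 log2 in clones 1 and 3 by its brightest probe, but by the mean of its probes it gave 0.30 and 0.18 log2 and did not pass (adjusted p = 0.496 and 0.732). Tlr2, a related receptor, fell (-1.54 and -1.25 log2). The adhesion gene Alcam rose by 4.52 and 4.44 log2, or by 2.86 and 2.72 log2 with normexp background correction, and Dcbld2 by 1.02 and 1.05 log2. Ager, which encodes the S100 receptor RAGE, was chosen after its values were seen and did not pass (0.26 log2 in clone 1, 95% interval -0.12 to 0.64, and 0.19 log2 in clone 3, 95% interval -0.23 to 0.61). S100pbp, whose product binds an S100 protein in human cells, rose by 0.73 and 0.69 log2, with the clone 3 call lost under a row block (adjusted p = 0.132).

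Among 15 tested transcription factors tied to S100 genes, 4 were higher and 3 lower in both clones, beside the same 11.3% and 12.2% of everything tested. The AP-1 subunit gene Fos rose by 2.07 and 1.51 log2 in clones 1 and 3 (1.44 in clone 1 with normexp background correction) and Fosl1, of the same family, fell (-0.99 and -0.42 log2). The Fosl1 call in clone 3 ended with median scaling (limma adjusted p = 0.105) and without a filter (adjusted p = 0.0965). It also ended without control array 2 or 3 (adjusted p = 0.0603 and 0.0658). Leaving out either clone 3 array, which leaves 1 array of that clone, ended the Fosl1 call as well. Cebpa, whose family acts on S100a8 and S100a9, rose by 0.91 and 0.62 log2 from near background, and neither call held with normexp background correction (adjusted p = 0.394 and 0.505). Irf7 rose by 0.95 and 0.70 log2 whereas Klf4 (-0.68 and -0.75 log2) and Tcf7l2 (-0.75 and -0.66 log2) fell. By the mean of their probes Irf7 (adjusted p = 0.766) and Tcf7l2 (adjusted p = 0.114) did not pass in clone 3. In a limma fit with a row block, 0 of the 7 passed in both clones.

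**Figure D4:**
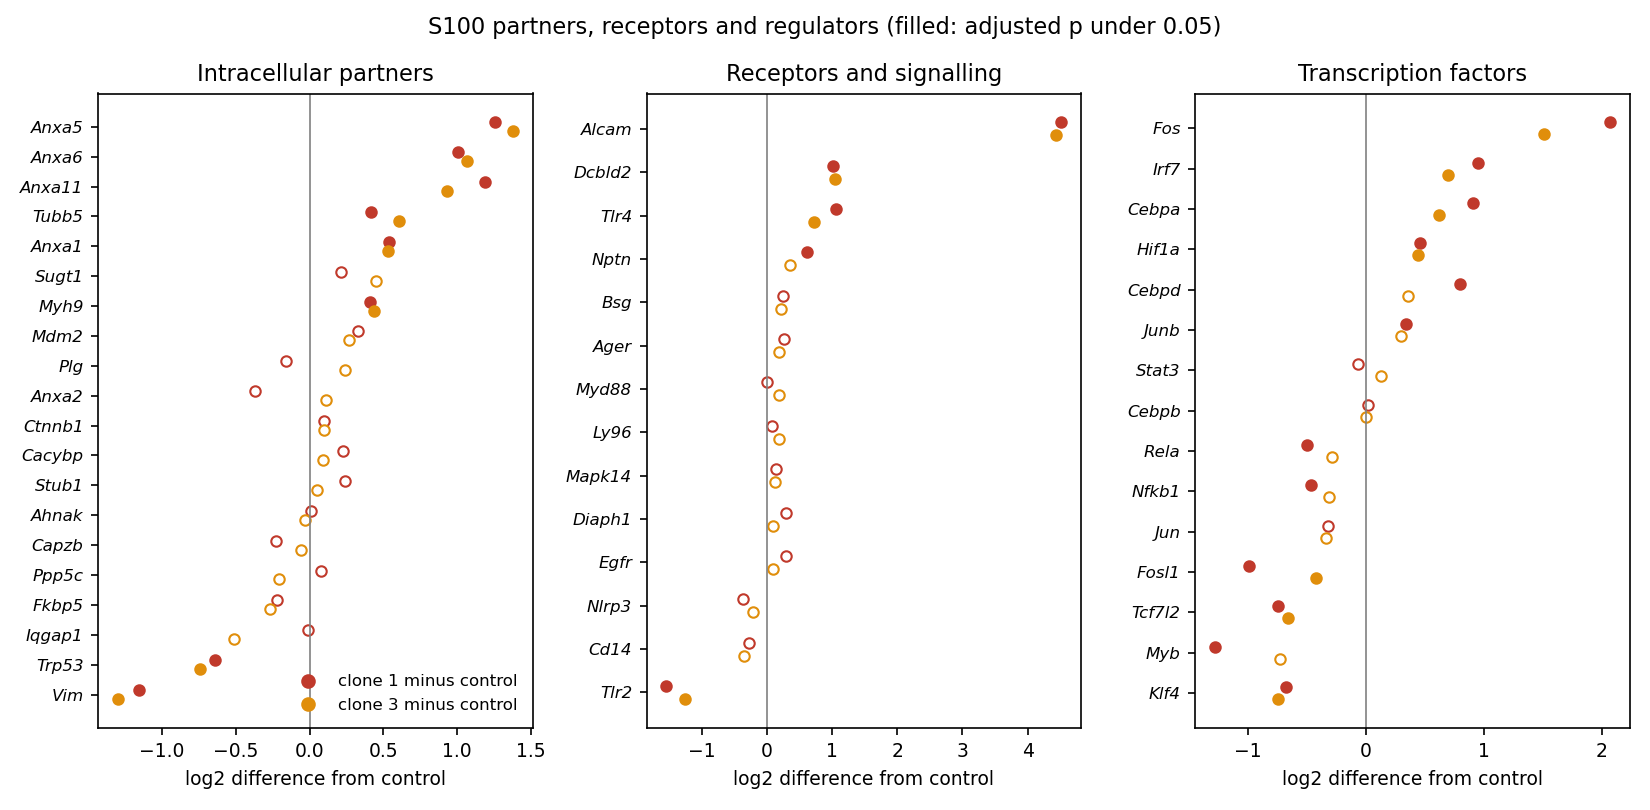
The log2 difference from the control is drawn on the horizontal axis for each tested intracellular partner, receptor or signalling gene and transcription factor, with a point for clone 1 and a point for clone 3 and filled points where the adjusted p was under 0.05. Genes run down each panel by their clone 3 difference, with Anxa5, Alcam and Fos at the top and Vim, Tlr2 and Klf4 at the bottom.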

How the data were processed

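Cy3 intensities of 8 arrays were used. The authors deposited each spot's processed signal, a linear, background-corrected intensity. The submitters' processing notes name Agilent Feature Extraction 11.5.11 as the software. Here, spots marked as outliers (114 to 242 an array) were dropped, log2 was taken, spots of a probe were averaged, and each array's 75th percentile over 56605 probes (268 to 377 in signal) was subtracted. Probes were named through transcript accession and RefSeq names of GRCm38.p6, and 32994 matched. The brightest probe stood for a gene, and testing required that probe to be well above background throughout 1 or more of the groups. The test was limma's (version 3.58.1, R 4.3.3, lmFit and eBayes, two-sided, Benjamini-Hochberg over 25352 tested, threshold 0.05) in 1 fit of 3 groups. Its code was run on simulated data in which few genes changed, in clone 1 only and with no row effect. That run therefore does not bear on the array row or on clone 3. The lower limit of a fold sets each dim value to no less than the lowest signal well above background on its array.

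All 10 members were named whatever their values. From each list all genes passing in both clones were named where there were 6 or fewer, otherwise the 3 higher and the 3 lower with the largest smaller change, as were genes of the S100 stretch passing in either clone. The members, lists and tests were chosen with earlier results of these data known. Alternatives were normexp background correction (offset 50, on median signals), quantile and median scaling, no filter or one on all 8 arrays, averaging a gene's probes, eBayes with trend and robust options, array weights (statmod 1.5.0), a block for the array row, fits of the 2 groups compared and each array left out. Fits within a row were added after the results were seen. Their values are counted among the alternatives below, and the row 1 fit rests on 1 clone 1 array.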

Additional observations from a re-analysis of the deposited data

How the results depend on the processing

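No paired analysis was possible because the labels number no replicates across groups. Of 152 values of the 8 tested S100 genes in clone 1 under the alternatives, 151 kept their side of the threshold and 1, of S100a1, no longer passed. In clone 3 this was so for 134 of 144, and 10, of S100a1, S100a13 and S100a14, no longer passed. For clone 1 the alternatives are not all distinct, since leaving out either clone 3 array repeats the fit of clone 1 and control alone. The row 1 fit, also counted there, rests on 1 clone 1 array. S100a1, S100a4, S100a13 and S100a14 kept their direction against the control throughout. Of the members that did not pass, S100a6 ran from -0.57 to 0.10 log2 in clone 1 and from -0.59 to 0.25 log2 in clone 3, S100a11 from -0.23 to 0.24 and from -0.30 to 0.17 log2, and S100a10 from -0.03 to 0.19 log2 in clone 1, so their sign is not settled. Between the clones all 152 stayed short of the threshold. The 4 members that passed in both clones became 2 without a filter and 1 with the row as a block, as did the 4 that passed in clone 3. With each array left out, the members passing in both clones numbered 3 to 4, and so did those passing in clone 3. The 8 intracellular partners passing in both clones became 5 without a filter, 4 with the row as a block and 5 to 7 with each array left out, the 5 without control array 2 or 3, clone 1 array 2 or clone 3 array 2. The 7 transcription factors became 0 with the row as a block, and the 12 other genes of the S100 stretch became 7 with it and 6 with normexp background correction. By the mean of all probes Mdm2 gave -0.67 and -0.65 log2 in clones 1 and 3, and Ahnak 0.90 log2 in clone 3, opposite in sign to their brightest probes. The cause of these changes was not tested. Over all tested genes the median difference moved between -0.05 and -0.01 log2 in clone 1 and between -0.04 and 0.05 log2 in clone 3 across scalings. Signal over background limits S100a8 and S100a9, which gave no test.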
